A study of Mus musculus with 22 samples.

Results

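The thrombospondins Thbs1 to Thbs4 and the CCN proteins Ccn1 to Ccn5 were followed in granulation tissue, the vascular and cell-rich tissue that fills a wound, of wild type (WT) and Mmp13-/- mice. The members are the 9 genes of these 2 families that were listed by name, with older symbols matched (Cyr61 is Ccn1, Ctgf is Ccn2, Nov is Ccn3, Wisp1 is Ccn4 and Wisp2 is Ccn5). Every probe set that the array annotation gives to 1 of these genes alone was used, which gave 17 of the 45037 probe sets tested and 9 of the 18193 genes with such a probe set. Ccn1 has 4 of them, Thbs2 has 3, Thbs1, Ccn3 and Ccn4 have 2 each, and Thbs3, Thbs4, Ccn2 and Ccn5 have 1 each. A gene is represented below by its brightest probe set, and the others are given beside it. The rule itself uses no measured value, but the families were chosen with earlier results of these data known.

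Thrombospondins and CCN proteins are matricellular proteins: they are secreted into the extracellular matrix and act on cells through integrins, proteoglycans and scavenger receptors rather than as building blocks of the matrix. Thbs1 and Thbs2 form trimers that restrain the growth of blood vessels, and Thbs1 also activates latent TGF-beta, while Thbs3 and Thbs4 form pentamers and are known from skeletal and tendon tissue. Ccn1 and Ccn2 are immediate targets of mechanical and TGF-beta signals in fibroblasts, Ccn4 and Ccn5 were first described as Wnt-induced secreted proteins, and Ccn5 lacks the C-terminal domain that the other CCN proteins carry.

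The tissue had grown into a viscose cellulose sponge (VCS) implanted under the dorsal skin, and RNA came from the ends of the sponge at 7, 14 and 21 d after implantation. Mmp13-/- mice lack a working gene for the collagenase MMP-13 in all cells, and the WT mice were bred from heterozygotes of the same backcross. The mice were 5 to 8 weeks old. The series text gives a backcross to C57BL6 of at least 7 generations and the sample labels give a mixed C57BL/6 x 129 background, so genes linked to Mmp13 can still differ between the genotypes. Each genotype has 3 arrays at 7 d, 4 at 14 d and 4 at 21 d, each from its own mouse according to the series text. All values are log2 signals, so a difference of 1 is a doubling.

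According to the labels the arrays were hybridized in 2 series, from 2 µg of RNA in the first and 250 ng in the second and with a different labelling kit. Series 1 holds the 7 d arrays and replicates 1 to 3 of 14 d, and series 2 holds replicate 4 of 14 d and the 21 d arrays, so the series enters every fit as a term. Only 14 d holds arrays of both series, so the term rests on replicate 4 of that day in each genotype. The differences between 14 d and 21 d depend on it. Mmp13 itself, measured as a check of the labels, ran from 10.26 to 12.02 on the WT arrays and from 7.62 to 8.63 on the Mmp13-/- arrays. Single defining markers of fibroblasts, macrophages and myofibroblasts were bright (Col1a1 from 10.50 to 13.15, Adgre1 from 9.48 to 10.48, Acta2 from 9.42 to 11.87). Other genes on the same lists were dimmer, with means of 6.82 for Dpp4 of fibroblasts and 5.36 for Cd163 of macrophages. The contractile genes Myh11 and Cnn1 had means of 4.54 and 3.82. Markers of skeletal muscle varied most between arrays, with a mean over 12 genes from 5.81 to 10.28. In whole tissue, fewer cells of a type and less RNA per cell cannot be told apart.

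**Figure D1:**
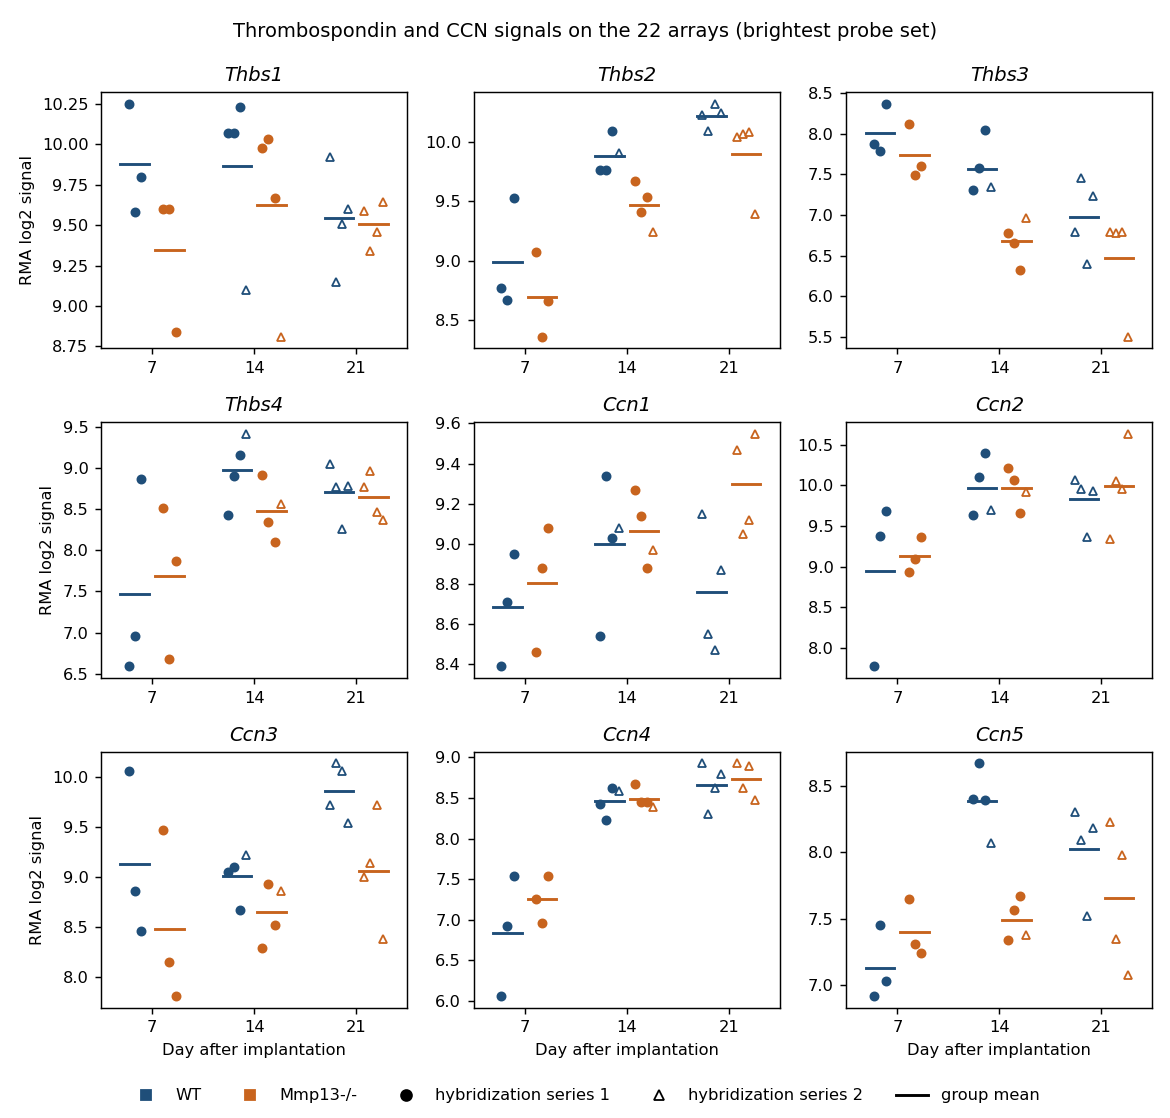
RMA log2 signal (vertical axis, own range for each gene) of the brightest probe set of each of the 9 genes on the 22 arrays, by day after implantation (horizontal axis). Each point is 1 array, circles are hybridization series 1 and triangles series 2, and bars are group means. Ccn4 lies between 6.06 and 7.54 on the 7 d arrays and between 8.23 and 8.93 on all later arrays, and the Ccn5 signal at 14 d lies between 7.34 and 7.67 on the Mmp13-/- arrays and between 8.07 and 8.67 on the WT arrays.

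From 7 d to 14 d, Ccn4, Ccn5 and Thbs2 rose in WT tissue, by 3.08-fold, 2.5-fold and 1.90-fold, and Ccn4 rose 2.35-fold in Mmp13-/- tissue. These are 3 of 9 genes in WT tissue and 1 of 9 in Mmp13-/- tissue at an adjusted p under 0.05 in limma, a linear model fitted to all probe sets. Over all probe sets, 1.70% were called in WT and 0.628% in Mmp13-/- tissue, and 1.13% and 0.326% were called as higher at 14 d. No member probe set lay under the median signal of all probe sets. Among the 22520 probe sets at or above it a larger share was called, 1089 in WT and 372 in Mmp13-/- tissue (3923 and 2623 before adjustment). Before adjustment 5 of 9 genes passed in WT tissue, all higher at 14 d, against 10.1% of all probe sets, and 5 of 9 in Mmp13-/- tissue, 4 higher and 1 lower, against 6.65%. Thbs1 was 1 of those 4, at 0.54 (standard error 0.20, adjusted p = 0.404, limma). It was 0.25 on its second probe set and 0.28 at the lowest among the other fits. In WT tissue the Thbs1 difference was 0.25, and -0.09 on the second probe set. The differences in WT and Mmp13-/- tissue were 0.32 and 0.26 for Ccn1 and -0.19 and 0.10 for Ccn3, none of which passed. The median log2 difference over the 9 genes was 0.92 in WT and 0.54 in Mmp13-/- tissue, where the median over all genes was 0.00 in both.

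Ccn4, a secreted protein of fibroblasts that is induced by Wnt signals, had log2 signals of 6.06, 6.92 and 7.54 in WT tissue at 7 d. At 14 d they were 8.43, 8.23, 8.62 and 8.59, and at 21 d 8.93, 8.30, 8.63 and 8.80. In Mmp13-/- tissue the signals were 7.26, 6.96 and 7.54 at 7 d, 8.67, 8.45, 8.45 and 8.39 at 14 d, and 8.93, 8.62, 8.90 and 8.47 at 21 d. In both genotypes every array of 14 d and 21 d lay above every array of 7 d. The rise from 7 d to 14 d was 1.62 in WT tissue (standard error 0.25, adjusted p = 0.00143, limma) and 1.23 in Mmp13-/- tissue (standard error 0.25, adjusted p = 0.0228), and it was 1.71 and 1.19 on the second probe set, which was also called in both. The rise did not differ detectably between genotypes (interaction -0.39, 95% interval -1.10 to 0.32, unadjusted p = 0.264, adjusted p = 1). The call in Mmp13-/- tissue was lost without replicate 1 or 2 of Mmp13-/- 7 d or replicate 1, 2 or 3 of Mmp13-/- 14 d (adjusted p up to 0.146), and within series 1 the difference was 1.27 (adjusted p = 0.0609). In WT tissue the rise was 1.59 within series 1 and stayed called (adjusted p = 0.0159), and the same 1.59 was not called when only the WT arrays of both days were fitted (adjusted p = 0.101). Without WT 14 d replicates 1 and 3, on which markers of keratinocytes, the cells of the epidermis, had a high signal (mean of 16 markers 4.71 and 5.05), it was 1.54 (adjusted p = 0.0575).

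Of all genes measured, those whose signals ran most like Ccn4 over the 22 arrays were Tagln (Pearson r 0.97), Acta2 (0.97) and Tgfb3 (0.96). Tagln and Acta2 are actin-associated genes of contractile cells, with Acta2 coding for alpha smooth muscle actin, and Tgfb3 is a TGF-beta ligand. The arrays share the 6 groups, so these correlations describe the time course as much as single arrays. Of 12 markers of myofibroblasts and smooth muscle, 4 rose from 7 d to 14 d in WT and 2 in Mmp13-/- tissue, led by Myl9 (1.98 and 1.66) and Tagln (1.83 and 1.88). The array with the lowest Ccn4 signal, WT 7 d replicate 1, also had the lowest mean over those markers (5.65, against 6.35 to 7.10 on the other 7 d arrays) and the lowest mean over 12 endothelial markers (5.26, against 6.36 to 7.09). Without that array the Ccn4 rise in WT tissue was 1.23 and stayed called.

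Thbs2, an inhibitor of vessel growth that also governs collagen fibril assembly, had log2 signals of 8.77, 8.67 and 9.53 in WT tissue at 7 d. They were 9.76, 9.76, 10.09 and 9.91 at 14 d and 10.23, 10.09, 10.32 and 10.24 at 21 d. The Mmp13-/- signals were 9.07, 8.36 and 8.66 at 7 d, 9.67, 9.41, 9.54 and 9.24 at 14 d, and 10.04, 10.07, 10.08 and 9.39 at 21 d. In each genotype all 14 d arrays lay above all 7 d arrays. The rise in WT tissue was 0.92 (standard error 0.21, adjusted p = 0.0245, limma), and the other 2 probe sets, at 1.04 and 1.02, were called as well. The probe set at 1.02 carries the array maker's mark for probes that can also match other transcripts. In Mmp13-/- tissue the difference was 0.80 (standard error 0.21, adjusted p = 0.110), and the interaction was -0.12 (95% interval -0.72 to 0.47). The WT call was lost without WT 7 d replicate 1 or 2, WT 14 d replicate 3 or 4, or Mmp13-/- 14 d replicate 4 (adjusted p up to 0.148), and within series 1 the difference was 0.88 (adjusted p = 0.0659). It was also lost when only the WT arrays of both days were fitted (adjusted p = 0.163) and without both WT 14 d arrays with high keratinocyte signal (adjusted p = 0.259). The genes most like Thbs2 over the 22 arrays were Srpx2 (r 0.94), Postn (0.93), which codes for the matricellular protein periostin, and Lrig3 (0.92).

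The sequence before the start of Thbs2 is shown because all 3 of its probe sets were called. RefSeq promoter windows (GRCm38.p6) were found for 4 of the 9 genes (Thbs2, Thbs3, Thbs4 and Ccn1) and not for Thbs1, Ccn2, Ccn3, Ccn4 and Ccn5. The 250 bases before the start were searched on both strands for 5 motifs: the CArG box of serum response factor (CC, then 6 A or T, then GG), the TEAD motif GGAATG, the SMAD motif CAGAC, the AP-1 motif TGANTCA and the TATA box TATAAA. Matches, on either strand, are in capitals. The window of Thbs2 is chr17:14694263-14694512 on the minus strand.
Thbs2: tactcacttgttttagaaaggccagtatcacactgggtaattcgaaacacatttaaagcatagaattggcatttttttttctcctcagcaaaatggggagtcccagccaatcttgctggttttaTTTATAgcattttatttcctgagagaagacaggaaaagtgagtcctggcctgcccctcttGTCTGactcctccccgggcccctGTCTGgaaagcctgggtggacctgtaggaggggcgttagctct
It holds 2 SMAD motifs, both on the opposite strand and the nearer 39 bases before the start, and 1 TATA box match on the opposite strand, 121 bases before it. Of 32851 such windows in the table, 42.2% hold a SMAD motif and 12.4% a TATA box match.

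Ccn5, which restrains growth and migration of smooth muscle cells, had the largest genotype difference in its change from 7 d to 14 d among the 9 genes. Its log2 signals in WT tissue were 6.92, 7.45 and 7.03 at 7 d, 8.40, 8.67, 8.39 and 8.07 at 14 d, and 8.30, 8.09, 7.52 and 8.18 at 21 d. In Mmp13-/- tissue they were 7.65, 7.31 and 7.24 at 7 d, 7.34, 7.57, 7.67 and 7.38 at 14 d, and 8.23, 7.35, 7.98 and 7.08 at 21 d. The WT signal at 14 d lay above all 7 d arrays of either genotype, whereas the Mmp13-/- signals at 14 d overlapped those at 7 d. The rise in WT tissue was 1.32 (standard error 0.24, adjusted p = 0.00477, limma), and the difference in Mmp13-/- tissue was 0.16 (95% interval -0.33 to 0.66, adjusted p = 1). Without both WT 14 d arrays with high keratinocyte signal the WT difference was 1.4 and no longer called (adjusted p = 0.0754). The interaction was -1.16 (standard error 0.32, 95% interval -1.84 to -0.48), with an unadjusted p of 0.00192 and an adjusted p of 1. No member, and 0% of all probe sets, passed the adjusted test of this interaction, and 1 of 9 genes passed without adjustment against 2.29% of all probe sets. Marker lists of other cells had negative interactions as well, with a median of -0.98 over 12 endothelial markers (1 positive, 7 lower without adjustment), -0.72 over 16 keratinocyte markers (2 positive, 3 lower) and -0.49 over 12 fibroblast markers (2 positive, 3 lower). The median over all genes was 0.00, no marker was called, and the part of these cells in the Ccn5 values was not tested.

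**Figure D2:**
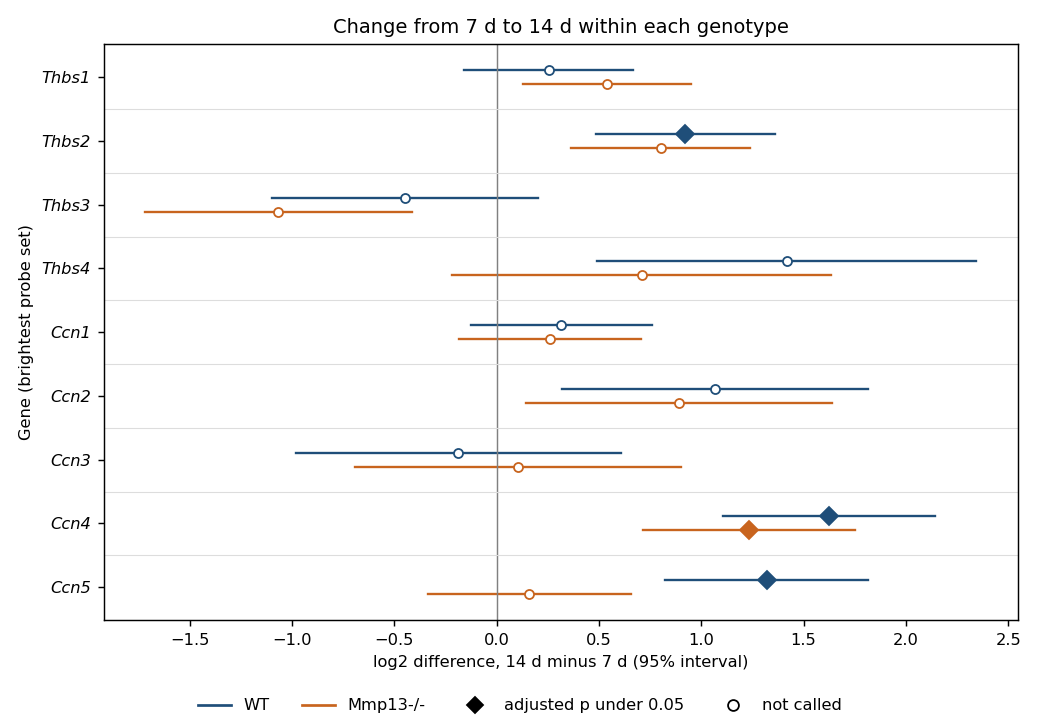
Log2 difference between 14 d and 7 d (horizontal axis) for the brightest probe set of each gene (vertical axis) in WT and Mmp13-/- tissue, with 95% intervals from limma. Filled diamonds passed an adjusted p of 0.05. Ccn4 was called in both genotypes, Thbs2 and Ccn5 in WT tissue, and the Ccn5 estimates are 1.32 and 0.16.

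Ccn2, a central mediator of fibrosis downstream of TGF-beta, was not called. Its log2 signals were 7.77, 9.38 and 9.69 in WT tissue at 7 d and 9.64, 10.11, 10.40 and 9.70 at 14 d, and the Mmp13-/- signals were 8.93, 9.09 and 9.36 and then 10.22, 10.07, 9.66 and 9.92. The difference from 7 d to 14 d was 1.07 in WT tissue (adjusted p = 0.182, limma) and 0.89 in Mmp13-/- tissue (adjusted p = 0.525). All Mmp13-/- arrays of 14 d lay above those of 7 d, while the WT arrays overlapped. In WT tissue the value rests on replicate 1 of 7 d, the array with low endothelial and myofibroblast markers, and was 0.48 without it. The 21 d arrays ran from 9.37 to 10.07 in WT and from 9.34 to 10.64 in Mmp13-/- tissue.

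Thbs4, a pentameric thrombospondin of tendon and muscle, varied most of the 9 genes at 7 d. Its log2 signals were 6.59, 6.96 and 8.87 in WT and 8.51, 6.68 and 7.87 in Mmp13-/- tissue. At 14 d they ran from 8.43 to 9.42 in WT and from 8.10 to 8.92 in Mmp13-/- tissue, and at 21 d from 8.26 to 9.05 and from 8.37 to 8.97. The difference from 7 d to 14 d in WT tissue was 1.42 (standard error 0.44, adjusted p = 0.137, limma), and without WT 7 d replicate 3 it was 2.12 and called (adjusted p = 0.00621). In Mmp13-/- tissue it was 0.71 (standard error 0.44, adjusted p = 1).
On the same 7 d arrays the mean of the 12 skeletal muscle markers was 5.81, 9.11 and 10.28 in WT and 9.36, 6.45 and 9.92 in Mmp13-/- tissue, and its part in the Thbs4 values was not tested. Of 12 tendon and cartilage markers, 2 rose in each genotype from 7 d to 14 d, Fmod (4.55 and 4.52) and Tnmd (2.46 and 2.17), and 7 lay under the median signal of all probe sets. The genes most like Thbs4 over the 22 arrays were C1qtnf3 (r 0.88), Col6a2 (0.87) and Cilp (0.87). Their Spearman rank correlations with Thbs4 were lower, at 0.66, 0.76 and 0.68.

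Thbs3, the other pentameric member measured here, was lower at each later day in both genotypes without passing the test. Its log2 signals were 7.87, 7.79 and 8.37 at 7 d, 7.31, 7.58, 8.05 and 7.35 at 14 d, and 6.79, 7.46, 6.40 and 7.23 at 21 d in WT tissue. In Mmp13-/- tissue they were 8.12, 7.49 and 7.60, then 6.78, 6.66, 6.32 and 6.96, and then 6.79, 6.78, 6.79 and 5.50. All Mmp13-/- arrays of 14 d lay below those of 7 d. The difference in Mmp13-/- tissue was -1.07 (standard error 0.31, adjusted p = 0.185, limma), and within series 1 it was -1.15 and called (adjusted p = 0.0318). In WT tissue it was -0.45 (standard error 0.31, adjusted p = 0.808), and the interaction was -0.62 (95% interval -1.51 to 0.27). The genes most like Thbs3 over the 22 arrays were Ddr2 (r 0.93), a collagen receptor of fibroblasts, Plce1 (0.92) and Cd34 (0.92).

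Between 14 d and 21 d none of the 9 genes was called in either genotype, where 0.420% of all probe sets were called in WT and 0.0799% in Mmp13-/- tissue. Without adjustment 0 of 9 genes passed in WT tissue, against 14.1% of all probe sets, and 2 of 9 in Mmp13-/- tissue, both higher at 21 d, against 13.7%. The latter were Thbs1 (0.68, standard error 0.23, adjusted p = 0.203, limma) and Thbs2 (0.53, standard error 0.25, adjusted p = 0.354). Without replicate 4 of Mmp13-/- 14 d, the only array of that group in series 2, the Thbs2 difference was 0.32. The genotype difference changed detectably between these days in no gene, with 0% of all probe sets called and 0 of 9 genes passing without adjustment against 6.58%.

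Thbs1 was lower on the 14 d arrays of hybridization series 2 than on the other 14 d arrays. This trimeric thrombospondin, an activator of TGF-beta that is also released by platelets, had log2 signals of 10.25, 9.58 and 9.80 in WT tissue at 7 d, 10.07, 10.07, 10.23 and 9.10 at 14 d, and 9.92, 9.15, 9.51 and 9.60 at 21 d. The Mmp13-/- signals were 9.60, 9.60 and 8.84, then 9.98, 10.03, 9.67 and 8.81, and then 9.59, 9.34, 9.46 and 9.64. At 14 d replicate 4, the only array of that day in series 2, was the lowest of its genotype in both, by 1.02 in WT and 1.08 in Mmp13-/- tissue below the mean of replicates 1 to 3. The series term was -1.05 (standard error 0.20, adjusted p = 0.00142, limma) on this probe set and -0.80 (standard error 0.15, adjusted p = 0.00135) on the other. The term rests on these same replicate 4 arrays, so the series and a deviation of these mice cannot be told apart. Over all probe sets 13.3% had a called series term.
With the term, the difference from 14 d to 21 d was 0.47 in WT and 0.68 in Mmp13-/- tissue, while the plain group means were 9.87 and 9.55 in WT and 9.62 and 9.51 in Mmp13-/- tissue, which runs the other way. Without the term the Mmp13-/- difference was -0.12. The second probe set gave 0.09 and -0.10 with the term, so the later time course of Thbs1 has no settled direction. Of 8 platelet markers, none was called in any of the comparisons between days or genotypes.

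**Figure D3:**
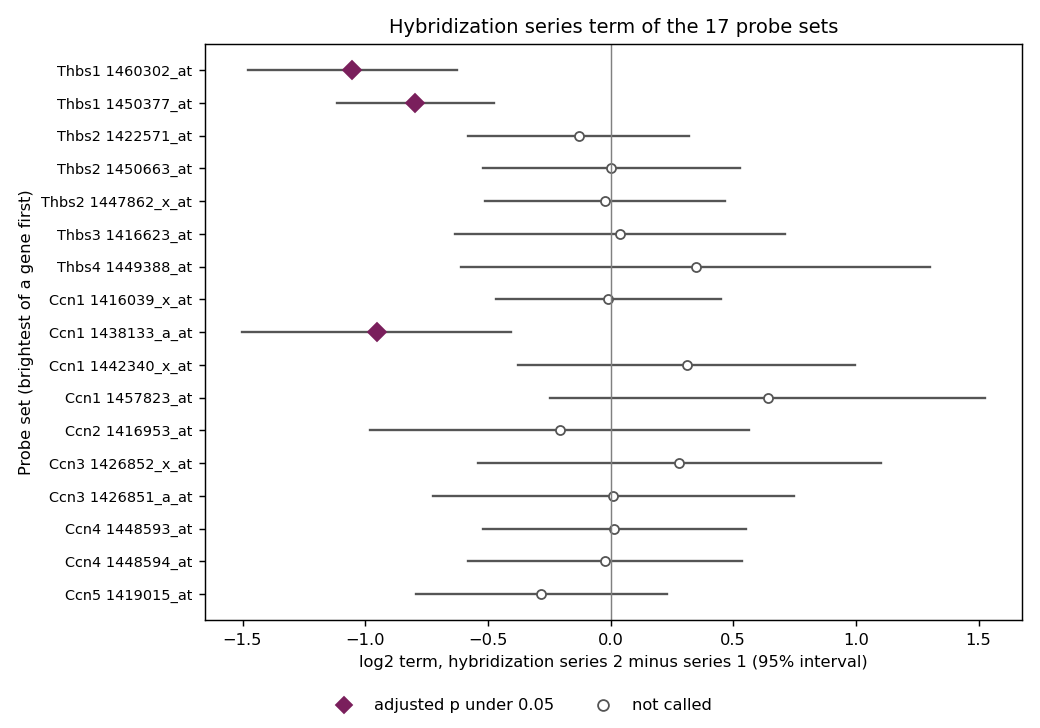
Fitted difference between hybridization series 2 and series 1 in log2 units (horizontal axis) for each of the 17 probe sets (vertical axis), with 95% intervals from limma. Filled diamonds passed an adjusted p of 0.05. Both Thbs1 probe sets (-1.05 and -0.80) and 1 of the 4 Ccn1 probe sets (-0.95) were called, and the intervals of the other 14 include 0. The fitted difference rests on replicate 4 of 14 d in each genotype.

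The genotypes were then compared at each day, which asks whether loss of MMP-13 alters the matricellular genes. No member was called at 7 d, 14 d or 21 d, or in the mean of the 3 days, where 0.00888%, 0.0178%, 0.0488% and 0.0688% of all probe sets were called. At an unadjusted p under 0.05, 1 of 9 genes passed at 7 d (against 2.16% of all probe sets), 3 of 9 at 14 d (3.98%) and 2 of 9 at 21 d (11.9%). In the mean of the 3 days 6 of 9 passed, against 6.56%, with Thbs1, Thbs2, Thbs3, Ccn3 and Ccn5 lower and Ccn1 higher in Mmp13-/- tissue. Ccn5 was not lower at each day, with differences of 0.27 at 7 d, -0.89 at 14 d and -0.36 at 21 d. The mean for Ccn1 was 0.24 (unadjusted p = 0.0490, limma), and 0.16 without both WT 14 d arrays with high keratinocyte signal. The medians of the 9 differences were 0.12, -0.36 and -0.07 at the 3 days, while those of all genes were 0.00, 0.00 and -0.01.

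**Figure D4:**
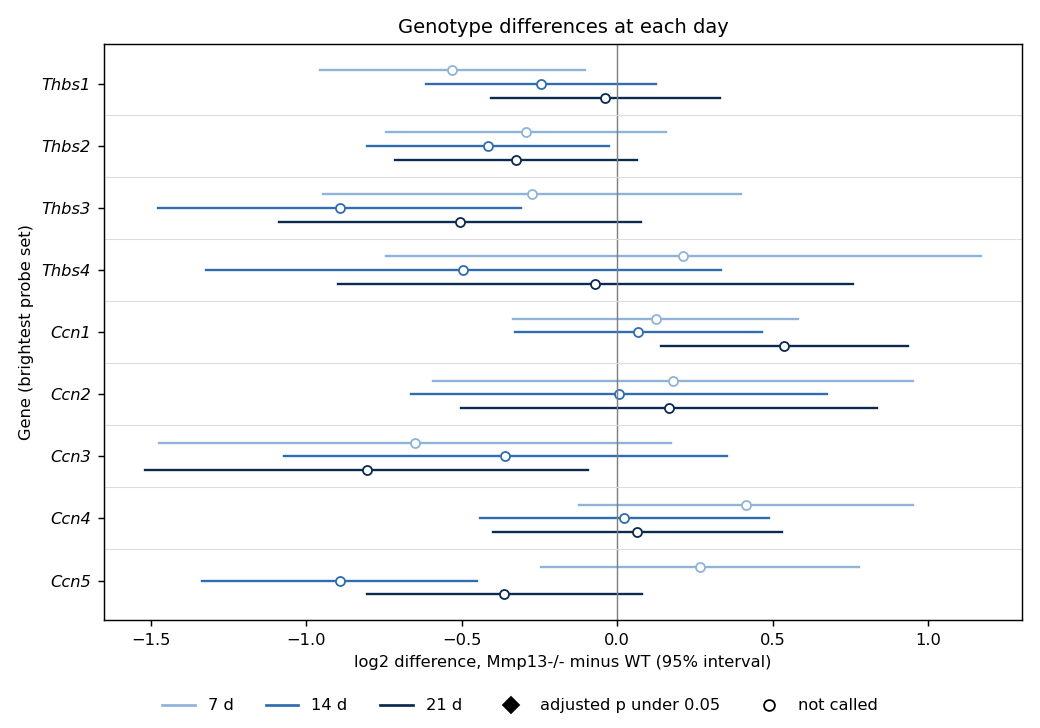
Log2 difference between Mmp13-/- and WT tissue (horizontal axis) at 7, 14 and 21 d for the brightest probe set of each gene (vertical axis), with 95% intervals from limma. No difference passed an adjusted p of 0.05. The interval of Thbs1 at 7 d and those of Thbs2, Thbs3 and Ccn5 at 14 d lie below 0, and at 21 d that of Ccn3 lies below and that of Ccn1 above 0.

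At 14 d the arrays of the genotypes did not overlap for Thbs2, Thbs3 and Ccn5, whose values are given above: the highest Mmp13-/- array lay below the lowest WT array. This holds for 3 of 9 genes, against 3.52% of all probe sets without overlap and 1.90% with the Mmp13-/- arrays below. The differences were -0.89 for Ccn5 (1.86-fold lower, standard error 0.21, adjusted p = 0.490, limma), -0.89 for Thbs3 (1.86-fold lower, standard error 0.28, adjusted p = 0.920) and -0.42 for Thbs2 (1.33-fold lower, standard error 0.19, adjusted p = 0.999). The exact two-sided permutation p was 0.0286 for each, the smallest that 4 against 4 arrays allow, and 0.193 after adjustment over the 27 tests of 9 genes at 3 days. Ccn5 passed when only the 14 d arrays were fitted (adjusted p = 0.0356), a fit that called 26 probe sets in place of 8. Within series 1 the differences were -0.96 for Ccn5, -1.06 for Thbs3 and -0.33 for Thbs2.

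Some marker means of other cells differed at the same day. The mean of 12 fibroblast markers ran from 9.94 to 10.31 on the Mmp13-/- arrays and from 10.44 to 10.64 on the WT arrays of 14 d, 11 of the 12 were lower in Mmp13-/- tissue, and Lum fell (-0.94, adjusted p = 0.0274, limma). The mean of 16 keratinocyte markers, of which 12 lay under the median signal of all probe sets, was 4.71 and 5.05 on WT replicates 1 and 3 and from 3.28 to 3.52 on the other 14 d arrays. The neutrophil mean ran from 6.32 to 6.65 in Mmp13-/- and from 6.68 to 7.15 in WT tissue. The platelet mean ran from 5.50 to 5.701 in Mmp13-/- and from 5.705 to 5.92 in WT tissue, so these ranges nearly met. Of 8 platelet markers 4 were higher in Mmp13-/- tissue (median -0.06). No keratinocyte, neutrophil or platelet marker was called. All 12 endothelial markers were lower in Mmp13-/- tissue (median -0.27, 2 of them at an unadjusted p under 0.05, none called), with a mean that overlapped, from 6.58 to 7.04 against 6.85 to 7.72. The part of these cells in the differences of Thbs2, Thbs3 and Ccn5 was not tested. The genes most like Ccn5 over the 22 arrays were Ptprm (r 0.82), Nox4 (0.81), an oxidase of fibroblasts, and Mmp3 (0.80), which codes for stromelysin.

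The window before the start of Thbs3, shown because its 14 d arrays did not overlap between genotypes, is chr3:89214930-89215179 on the plus strand.
Thbs3: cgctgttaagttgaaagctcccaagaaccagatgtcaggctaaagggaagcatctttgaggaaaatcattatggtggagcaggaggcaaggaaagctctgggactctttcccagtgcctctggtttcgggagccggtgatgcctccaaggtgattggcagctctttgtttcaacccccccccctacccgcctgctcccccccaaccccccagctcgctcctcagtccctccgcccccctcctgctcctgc
None of the 5 motifs occurs in it, so no letter is in capitals.

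At 21 d Thbs2 was the only member whose arrays did not overlap between genotypes, 1 of 9 genes against 2.98% of all probe sets. Its difference was -0.33 (standard error 0.19, adjusted p = 0.509, limma), and the exact permutation p was again 0.0286. The groups were barely apart, with the highest Mmp13-/- array at 10.08 and the lowest WT array at 10.09. Replicate 4 of the Mmp13-/- group, at 9.39, lay far from the others, which ran from 10.04 to 10.08. The probe sets did not all separate the genotypes: at 21 d 1 of the other 2 overlapped (-0.14, exact permutation p = 0.600), and at 14 d the other of them did (-0.45, exact permutation p = 0.0571). All 3 Thbs2 probe sets were lower in Mmp13-/- tissue at each day, with differences from -0.45 to -0.14. Averaged over the days the difference was -0.34 (95% interval -0.58 to -0.11, adjusted p = 0.482).

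Ccn1, an integrin ligand that promotes vessel growth and limits scarring by driving myofibroblasts into senescence, was higher in Mmp13-/- tissue at 21 d on all 4 probe sets. The log2 signals of the brightest were 9.15, 8.55, 8.47 and 8.87 in WT and 9.47, 9.05, 9.12 and 9.55 in Mmp13-/- tissue. In Mmp13-/- tissue 2 arrays lay above all WT arrays, and the other 2 overlapped with them. The difference was 0.54 (1.45-fold, standard error 0.19, adjusted p = 0.262, limma), and 0.73, 0.91 and 0.91 on the other probe sets. At 7 d it was 0.12, and 0.14, 0.12 and -0.20 on the others, and at 14 d it was 0.07, and -0.06, 0.51 and 0.43 on the others. The differences of 0.51 and 0.43 at 14 d belong to the dimmest probe sets, and none was called. The brightest probe set and one other carry the array maker's mark for probes that can also match other transcripts, and the probe set without that mark that has the next brightest signal had a called series term of -0.95 (adjusted p = 0.0194).

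The window before the start of Ccn1, a textbook target of YAP and TEAD factors, is chr3:145649986-145650235 on the minus strand.
Ccn1: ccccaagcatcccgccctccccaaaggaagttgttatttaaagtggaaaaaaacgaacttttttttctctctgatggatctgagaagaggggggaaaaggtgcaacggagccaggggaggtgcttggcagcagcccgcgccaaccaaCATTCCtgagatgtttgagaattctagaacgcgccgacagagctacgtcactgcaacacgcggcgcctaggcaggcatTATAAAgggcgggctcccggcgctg
It holds 1 TEAD motif, on the opposite strand 98 bases before the start, and 1 TATA box 20 bases before it. Of all windows 12.6% hold a TEAD motif, 1.47% a CArG box and 6.75% an AP-1 motif, and the window of Ccn1 holds neither of the last 2. The window of Thbs4, not shown, holds 2 TEAD motifs and 2 SMAD motifs.

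Ccn3, a CCN protein known to counter the profibrotic activity of Ccn2, was lower in Mmp13-/- tissue at each day. Its log2 signals were 10.06, 8.86 and 8.46 in WT and 9.47, 8.15 and 7.81 in Mmp13-/- tissue at 7 d, and 9.05, 9.10, 8.67 and 9.22 against 8.29, 8.93, 8.52 and 8.86 at 14 d. At 21 d they were 9.72, 10.14, 10.06 and 9.54 against 9.0, 9.14, 9.72 and 8.38. The groups overlapped at each day, at 21 d through 1 Mmp13-/- array. The differences were -0.65, -0.36 and -0.81, and their mean was -0.61 (95% interval -1.04 to -0.17, unadjusted p = 0.00865, adjusted p = 0.529, limma). The brightest probe set carries the array maker's mark described for Ccn1. The second probe set, without that mark, gave -0.47, -0.30 and -0.67.

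The Thbs1 signals at 7 d, given above, averaged 9.88 ± 0.34 in WT and 9.35 ± 0.44 in Mmp13-/- tissue (SD, n = 3 each). They differed by -0.53 in limma (standard error 0.20), with an unadjusted p of 0.0173 and an adjusted p of 1. It was -0.28 without Mmp13-/- 7 d replicate 3, the lowest array, and -0.38 on the second probe set. The exact permutation p was 0.300, where 3 against 3 arrays allow no less than 0.10. For Ccn4 the genotype differences were 0.41, 0.02 and 0.07 at the 3 days, for Ccn2 0.18, 0.01 and 0.17, and for Thbs4 0.21, -0.49 and -0.07. The 95% intervals of these 9 differences include 0 and are widest for Thbs4, at 14 d from -1.32 to 0.33. The second Ccn4 probe set gave 0.64, 0.12 and 0.09, and its interval at 7 d, from 0.08 to 1.20, lies above 0 (unadjusted p = 0.0277, adjusted p = 1, limma).

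The genes around the 2 families, taken from named lists, moved mainly between 7 d and 14 d. Of 14 other matricellular genes measured, 5 rose in WT tissue and 1 in Mmp13-/- tissue, with Smoc2, a calcium-binding matrix protein of the SPARC family, at 2.53 (adjusted p = 3.15e-06, limma) and 1.0 (adjusted p = 0.0429). Their median log2 difference was 0.44 in WT and 0.24 in Mmp13-/- tissue. Of 21 YAP/TAZ targets other than Ccn1 and Ccn2, 3 rose in WT and 1 in Mmp13-/- tissue, with Ajuba at 1.05 and 0.78. Of 19 TGF-beta pathway genes 2 rose in each genotype. Tgfb3 was among them in both, at 1.47 and 1.34. Of 18 receptors of thrombospondins and CCN proteins 1 rose in WT tissue, the integrin subunit gene Itgb5 at 0.65 (adjusted p = 0.0136), and none in Mmp13-/- tissue, where Itgb5 was at 0.55 (adjusted p = 0.0804). Of 17 YAP, TAZ, TEAD and SRF factors Wwtr1, which codes for TAZ, and Vgll3 rose in WT tissue (0.57 and 0.55) and none in Mmp13-/- tissue. Of 13 Wnt target and feedback genes Dkk3 rose in WT tissue (1.05) and none in Mmp13-/- tissue. Between the genotypes none of the genes on these 6 lists was called at any day. Whether the counts differ between WT and Mmp13-/- tissue was not tested.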

How the data were processed

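Total RNA of granulation tissue was measured on 22 Affymetrix 3' arrays of the mouse genome. The authors normalized the arrays with RMA and deposited log2 values per probe set, in 1 table of 45101 probe sets. According to the study's methods quality was checked in Expression Console and the tests were run in Chipster. Whether both hybridization series went through RMA together, and its version, is not given in the sources used here. Array medians ran from 4.16 to 4.27. RMA makes arrays alike in their distribution, and the number of arrays limits the precision.

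All probe sets but the 64 controls were kept, bright or dim. The means of the 6 genotype-by-day groups and a hybridization series term were fitted to all arrays with limma 3.58.1 in R 4.3.3 (15 residual and 4.57 prior degrees of freedom), with Benjamini-Hochberg adjustment over 45037 probe sets. Exact permutation tests compared single genes. Gene names come from the platform annotation (34945 probe sets have 1 symbol, 932 several, 9160 are unnamed here). All members were tested in every comparison, but not every value is printed. From each other list at most 2 genes with the smallest adjusted p are named for a comparison. The 3 genes with the highest correlation were sought for each member and are named for Ccn4, Thbs2, Thbs3, Thbs4 and Ccn5. For the others the closest gene was Atp5b for Thbs1 (Pearson r 0.82), Clec16a for Ccn1 (0.71) and Ccdc66 for Ccn3 (0.81). For Ccn2 it was Msrb3 (0.81, Spearman rank correlation 0.55). The members, lists and tests were chosen with earlier results of these data known. The steps were tested on simulated data. Leaving out each array, 7 other fits or scalings, the fits within each series and, added after seeing the data, leaving out both WT 14 d arrays with high keratinocyte signal were the alternatives. Of the marker lists, only that of fibroblasts had a called gene in a comparison between genotypes (Lum).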

Additional observations from a re-analysis of the deposited data

Results flagged for a closer look

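In 3 of 36 groups of 4 arrays, 1 array lay far from the other 3, and chance alone marks about 1 group in 20. For Thbs1 in WT tissue at 14 d this was replicate 4, at 9.10 where the others ran from 10.07 to 10.23. It is the only WT array of that day in hybridization series 2. For Thbs2 and Thbs3 in Mmp13-/- tissue at 21 d it was replicate 4 in both, at 9.39 where the others ran from 10.04 to 10.08, and at 5.50 where they ran from 6.78 to 6.79. The same array had the lowest fibroblast marker mean of its group (9.94) and the highest skeletal muscle marker mean (8.83), whose part in these values was not tested.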

How the results depend on the processing

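Of the recomputed counts of called members, 297 stayed within 1.5 times the reported count and 10 did not. The reported count was 0 except from 7 d to 14 d within a genotype, and a change from 3 to 2 members is within 1.5 times. These counts therefore do not show every loss of a single call given above. When only the arrays of the groups compared were fitted, 1 member was called between genotypes at 14 d (Ccn5), 1 from 7 d to 14 d in WT tissue (Ccn5) and 2 in Mmp13-/- tissue (Thbs3 and Ccn4), where these fits called 26, 285 and 393 of the 45037 probe sets in place of 8, 767 and 283. Leaving out each array gave 0 to 2 called members from 7 d to 14 d in Mmp13-/- tissue. Without both WT 14 d arrays with high keratinocyte signal, 0 members were called in WT tissue, although the differences were 1.54 for Ccn4 (adjusted p = 0.0575, limma), 1.4 for Ccn5 (0.0754) and 0.91 for Thbs2, and that fit, with fewer arrays, called 169 of all probe sets in place of 767. Without the hybridization series term Thbs1 in Mmp13-/- tissue differed by -0.12 between 14 d and 21 d in place of 0.68. No other direction of a recomputed member turned. With the replicate number as a replicate block, 3 members were called from 7 d to 14 d in WT tissue and 1 in Mmp13-/- tissue, and no call changed. Over all days the numbers were not taken to pair the arrays, since those of the same number deviated together (r over 0.1) in 6 of 11 pairs, from -0.16 to 0.61. At 14 d all 4 pairs did, from 0.12 to 0.61, and that day mixes both hybridization series by number. With the block the 14 d genotype differences stayed -0.89 for Ccn5 (adjusted p = 0.505, limma), -0.89 for Thbs3 (0.852) and -0.42 for Thbs2 (0.999).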
